A study of Mus musculus with 24 samples.

Results

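The genes described here are 47 genes of TGF-beta and BMP signalling and of the myofibroblast program, chosen by name: the TGF-beta, BMP, activin and GDF ligands, their receptors, the SMAD proteins with their regulators, the secreted antagonists, and genes that mark TGF-beta exposed or contractile fibroblasts. Of these, 46 had a row on the arrays that carries exactly 1 gene symbol, out of 22180 genes with such a row, and Gdf15 is not analysed here. The cells came from the gonadal (epididymal) fat of male C57Bl/6 mice and were freed with collagenase and sorted as live cells by flow cytometry. Mice ate a normal diet (ND), a high fat diet with 60% fat (HFD), or went through weight loss (WL), which was 12 weeks of the high fat diet followed by 8 weeks without it. The sorted cells were preadipocytes (PA), the fibroblast-like precursors of fat cells, macrophages of the fat (adipose tissue macrophages, ATM) with or without the surface integrin CD11c, and dendritic cells of the fat (ATDC). The 9 groups were ND CD11c- ATM (2 arrays), ND ATDC (2), ND PA (3), HFD CD11c+ ATM (3), HFD CD11c- ATM (3), HFD ATDC (3), HFD PA (3), WL CD11c+ ATM (3) and WL CD11c- ATM (2), 24 arrays in all. An ND or HFD array carries RNA pooled from several mice, up to 4, while the sources used here do not state the pooling of the WL arrays, the age of the mice or the sort markers other than CD11c. CD11c+ macrophages of ND mice were not purified because they were too few.

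TGF-beta is secreted in a latent complex that latent TGF-beta binding proteins (LTBPs) tie to the matrix. Once released, it assembles a type I and a type II receptor into a complex whose type I receptor phosphorylates SMAD transcription factors. BMPs use a parallel set of receptors and SMADs and are held in check by secreted antagonists such as follistatin. In fat, TGF-beta is known for holding back the maturation of preadipocytes and for driving fibroblasts towards matrix-producing, contractile myofibroblasts, which are recognised by smooth muscle actin (Acta2) and transgelin (Tagln).

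All values are log2 expression levels, and a difference of 1 is a 2-fold difference. Differences were tested with limma in 1 model over all 24 arrays, with p-values adjusted by Benjamini-Hochberg over 15496 genes and a threshold of 0.05, and errors are standard errors (SE) of that model. Of the 46 members, 45 were tested; Bmpr1b, a BMP type I receptor, lay below the array median on every array. Other members entered through few bright arrays: Smad6, Cnn1 and Grem1 exceeded the array median on 2 arrays each, Ltbp2 on 4 and Inhba on 6. Both arrays of Smad6 and 3 of the 4 of Ltbp2 were HFD PA, so these genes entered the test through the group in which they were high. Where no array of a group exceeded its array median, a difference is given as a lower bound against that median. Array medians ran from 2.96 to 3.15, and arrays of 1 group correlated between 0.878 and 0.982 over all genes. The sorted populations carried their markers. The median of 11 preadipocyte and fibroblast markers was 10.12 to 10.48 on the PA arrays and 5.03 to 8.92 on all others. The median of 10 macrophage markers was 9.67 to 10.8 on the macrophage arrays, 8.23 to 9.65 in ATDC and 4.37 to 8.18 in PA. The median of 9 dendritic cell markers was 8.03 to 8.76 in ATDC and at most 5.91 elsewhere. In such sorted pools, less RNA per cell cannot be told apart from fewer cells that carry it.

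Most of the members were highest in preadipocytes. The group with the highest mean was a PA group for 30 of the 46 members, a macrophage group for 14 and an ATDC group for 2. This ranking was not made over all genes, so the count has no background. It also includes members below the array median on most or all arrays, such as Bmpr1b, Grem1 and Cnn1. On the normal diet 24 of the 45 tested members differed between PA and CD11c- ATM, 21 of them higher and 3 lower in PA, where 23.4% of all tested genes differed, 12.6% higher and 10.8% lower. On the high fat diet 27 differed, 23 of them higher and 4 lower in PA, against 20.7% of all genes, 11% higher and 9.68% lower. Against HFD CD11c+ ATM 28 differed, 24 of them higher and 4 lower, against 25.2% of all genes, 11.7% higher and 13.5% lower. The median log2 difference over the members was 0.65, 0.93 and 0.86 in these comparisons, and that over all genes was -0.01, -0.03 and -0.07. The comparisons with HFD CD11c- and CD11c+ ATM share their PA arrays, and the members were chosen with such results known, so these counts are a description.

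**Figure D1:**
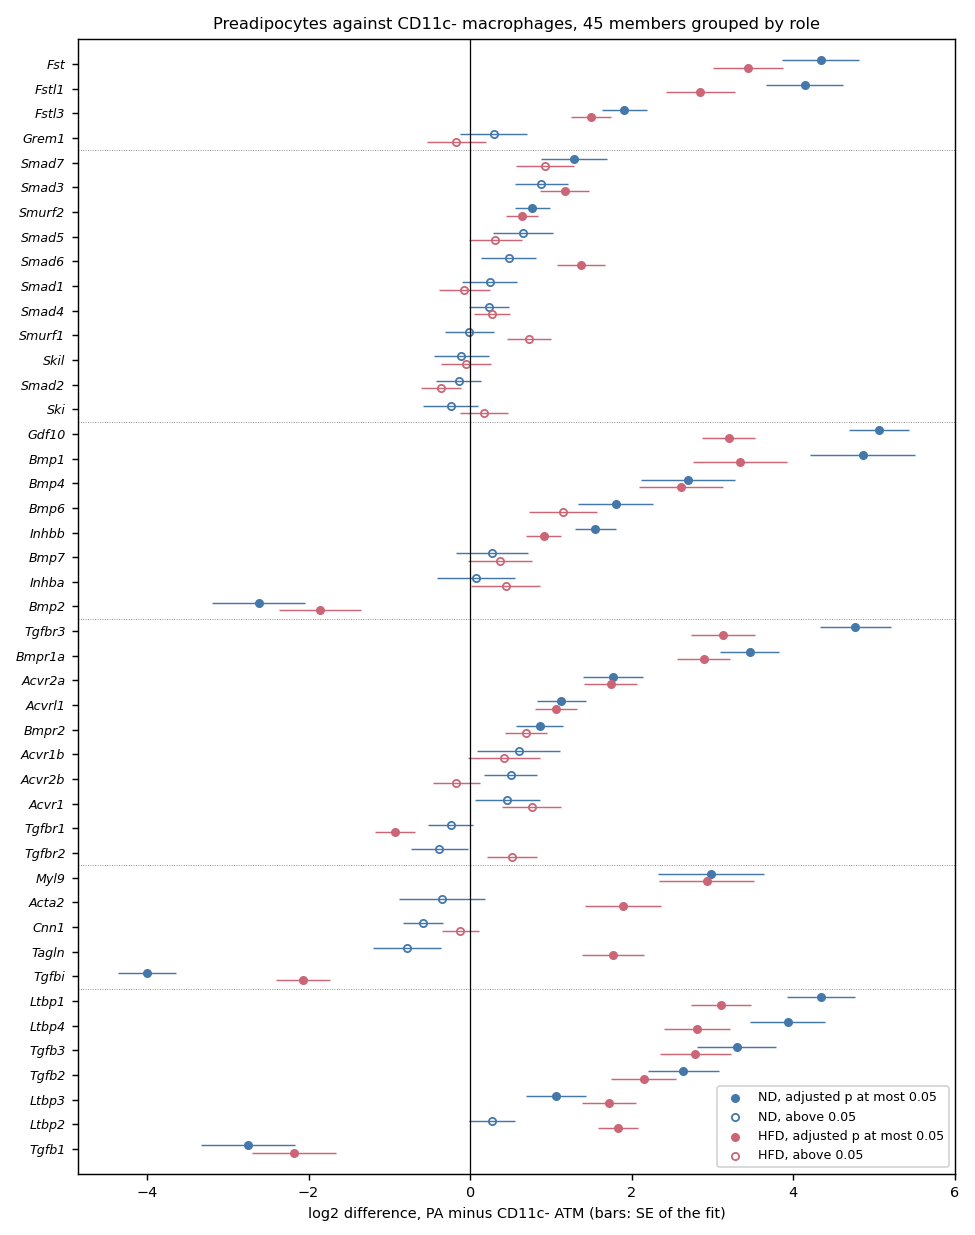
Log2 difference between PA and CD11c- ATM for the 45 tested members, with 1 row per member and dotted lines between roles; bars are the SE of the fit, blue is ND, red is HFD, and filled points passed the threshold; fitted differences are drawn also where the text gives a lower bound. Tgfb1, Tgfbi and Bmp2 lie left of 0 on both diets, while Acta2, Tagln and Ltbp2 are filled on HFD only.

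The 3 TGF-beta ligands split between the cell types. Tgfb1, the isoform best known from immune cells, was the macrophage ligand: it read 8.29 and 8.67 in ND CD11c- ATM and 6.67, 6.34 and 4.17 in ND PA, and the groups did not overlap. Its log2 difference of PA from CD11c- ATM was -2.75 ± 0.58 on ND (adjusted p = 0.00131) and -2.18 ± 0.52 on HFD (adjusted p = 0.00434). On HFD the values were 8.52, 8.69 and 8.90 in CD11c- ATM, 9.12, 9.10 and 9.16 in CD11c+ ATM, and 6.61, 5.64 and 7.33 in PA. ATDC sat with the macrophages, at 8.57 and 7.80 on ND and 7.28, 8.95 and 8.30 on HFD. Tgfb2 ran the other way, with 6.20, 5.66 and 5.45 in ND PA against 2.92 and 3.35 in ND CD11c- ATM. It was higher in PA by 2.64 ± 0.44 (adjusted p = 0.000122) on ND and by 2.15 ± 0.40 (adjusted p = 0.000423) on HFD. Tgfb3 was also a PA gene, at 5.80, 5.65 and 6.39 on ND and 7.24, 6.32 and 6.89 on HFD. No ND CD11c- ATM array exceeded its median for Tgfb3 (2.92 and 2.37), so the ND difference was at least 2.83 (adjusted p = 3.17e-05), and on HFD it was 2.79 ± 0.44 (adjusted p = 9.3e-05).

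The latent binding proteins followed Tgfb2 and Tgfb3. Ltbp1, which stores latent TGF-beta in the matrix, read 8.48, 8.30 and 7.92 in ND PA and 3.57 and 4.21 in ND CD11c- ATM, a difference of 4.34 ± 0.42 (adjusted p = 2.4e-07). Ltbp4, another matrix anchor of the latent complex, was higher in ND PA by 3.93 ± 0.46 (adjusted p = 1.69e-06), at 9.13, 8.17 and 7.69 against 4.60 and 4.19. Ltbp3 was higher by 1.06 ± 0.37 (adjusted p = 0.0403), a call that was lost without either ND CD11c- ATM array or ND PA replicate 1. On HFD, Ltbp1, Ltbp4 and Ltbp3 were higher in PA than in CD11c- ATM by 3.11 ± 0.37, 2.81 ± 0.41 and 1.72 ± 0.33 (adjusted p between 7.66e-06 and 0.000558). Among other genes of latency, storage and release, 7 of 11 were higher and 1 lower in ND PA. The protease gene Htra1 was higher by 4.16 ± 0.48, and Nrros, which holds latent TGF-beta on myeloid cells, was lower by a log2 difference of -3.92 ± 0.34 (adjusted p = 9.61e-08).

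**Figure D2:**
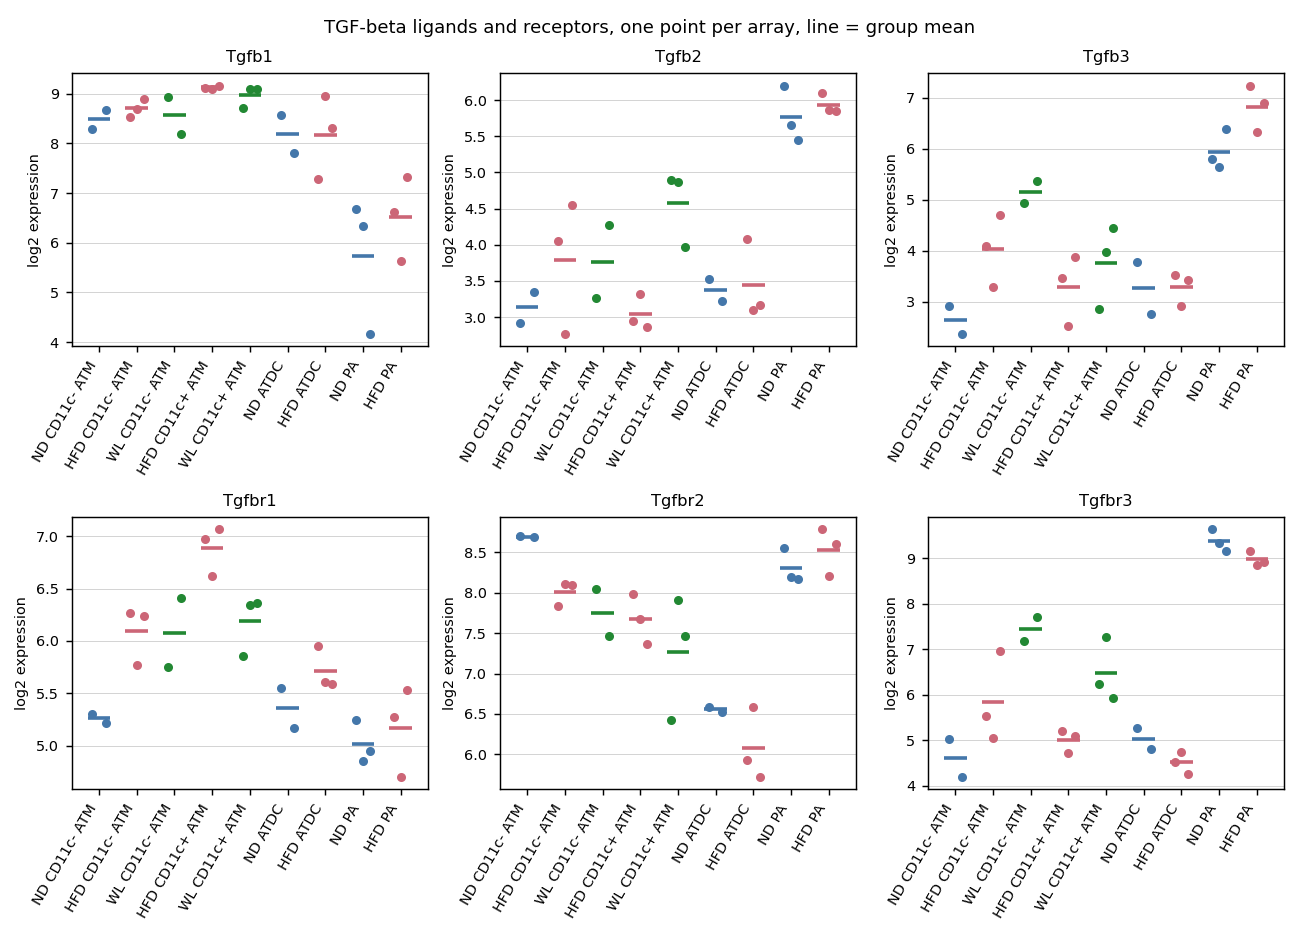
Log2 expression of the TGF-beta ligands Tgfb1, Tgfb2 and Tgfb3 and receptors Tgfbr1, Tgfbr2 and Tgfbr3 on each of the 24 arrays by group; points are arrays, lines are group means, and the vertical axes differ between panels. Tgfb1 is lowest in the PA groups, Tgfb2, Tgfb3 and Tgfbr3 are highest there, and Tgfbr2 is lowest in the ATDC groups.

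Among the BMP, activin and GDF genes, Gdf10 and Bmp1 set the preadipocytes apart. Gdf10, a BMP-like ligand also called BMP3B, read 9.74, 9.23 and 8.98 in ND PA and 4.55 and 3.96 in ND CD11c- ATM, a difference of 5.06 ± 0.37 (adjusted p = 1.69e-08). Bmp1, which despite its name is a procollagen protease and no BMP, read 7.85, 7.63 and 7.41 in ND PA and lay below the array median in both ND CD11c- ATM arrays. Its difference was at least 4.52 on ND (adjusted p = 9.56e-06) and 3.34 ± 0.58 on HFD (adjusted p = 0.000253). Bmp4, a BMP that commits precursors to the fat lineage, was higher in PA by at least 2.68 on ND (adjusted p = 0.00149) and by 2.61 ± 0.52 on HFD (adjusted p = 0.000837). Inhbb, the activin B subunit, was higher by 1.55 ± 0.25 and 0.91 ± 0.22. Bmp6, a BMP of iron control, passed on ND, at least 1.61 higher (adjusted p = 0.00655), and was lost without ND CD11c- ATM replicate 1 (adjusted p = 0.0707). Bmp2, a further BMP ligand, was the exception and was highest in CD11c- macrophages: it read 5.95 and 6.18 there on ND and 3.47, 2.94 and 3.94 in PA, a difference of -2.62 ± 0.57 (adjusted p = 0.00163). On HFD the difference was -1.86 ± 0.51 (adjusted p = 0.0113), lost without HFD CD11c- ATM replicate 1 or HFD PA replicate 3. Against HFD CD11c+ ATM it was -1.5 ± 0.51 (adjusted p = 0.0351), with overlapping arrays, and was lost in 4 of 6 leave-outs.

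Tgfbr1 and Tgfbr2, the core TGF-beta receptors, were not higher in PA than in CD11c- macrophages by the test. Tgfbr2, the type II receptor, read 8.55, 8.20 and 8.17 in ND PA and 8.70 and 8.69 in ND CD11c- ATM, and Tgfbr1, the type I receptor, read 5.24, 4.85 and 4.95 against 5.30 and 5.22. Neither passed the test on ND (adjusted p = 0.511 and 0.62). On HFD Tgfbr1 was lower in PA, by a log2 difference of -0.93 ± 0.25 from CD11c- ATM (adjusted p = 0.0101) and of -1.72 ± 0.25 from CD11c+ ATM (adjusted p = 2.49e-05). Its values were 5.27, 4.70 and 5.53 in PA, 6.27, 5.77 and 6.24 in CD11c- ATM and 6.97, 6.62 and 7.07 in CD11c+ ATM, and the former call was lost without HFD CD11c- ATM replicate 1 or HFD PA replicate 2. Tgfbr3, the coreceptor betaglycan, which presents TGF-beta 2 to the receptors, was a PA gene with 9.64, 9.33 and 9.16 on ND and 9.16, 8.85 and 8.92 on HFD. It was higher than in CD11c- ATM by 4.77 ± 0.44 on ND (adjusted p = 1.64e-07) and by 3.13 ± 0.40 on HFD (adjusted p = 1.19e-05). The BMP type I receptor Bmpr1a was higher in PA by 3.46 ± 0.37 and 2.89 ± 0.33, and the activin type II receptor Acvr2a by 1.77 ± 0.37 and 1.74 ± 0.33. Acvrl1, a type I receptor best known from endothelium, was higher by 1.13 ± 0.30 and 1.06 ± 0.26, the ND call being lost without ND CD11c- ATM replicate 1 (adjusted p = 0.0571). Bmpr2, the BMP type II receptor, was higher on ND by 0.86 ± 0.29 (adjusted p = 0.0399), a call lost in each of the 5 leave-outs, and Tgfbr2 was higher in PA than in HFD CD11c+ ATM by 0.86 ± 0.31 (adjusted p = 0.0496), lost in 4 of 6 leave-outs. Acvr1, Acvr1b and Acvr2b passed in none of the 3 comparisons of PA with macrophages.

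Of the 11 genes of SMADs, their ubiquitin ligases and corepressors, 2 were higher in PA than in CD11c- ATM on ND, where 12.6% of all genes were higher. On HFD 3 were, where 11% of all genes were higher. Smad3, which carries the TGF-beta signal to the nucleus, read 6.98, 5.94 and 6.31 in ND PA against 5.82 and 5.24 in ND CD11c- ATM (0.88 ± 0.33, adjusted p = 0.0611). On HFD it read 6.38, 6.37 and 6.33 in PA against 5.21, 5.01 and 5.35, a difference of 1.17 ± 0.30 (adjusted p = 0.0062). Smad7, the inhibitory SMAD that TGF-beta itself induces, was higher in ND PA by 1.29 ± 0.41 (adjusted p = 0.0247), with 6.59, 4.86 and 4.82 against 3.98 and 4.30; the call was lost without ND PA replicate 1, its brightest array, or either ND CD11c- ATM array. On HFD the difference was 0.93 ± 0.36 (adjusted p = 0.0808). Smurf2, a ubiquitin ligase that removes receptors and SMADs, was higher by 0.77 ± 0.22 and 0.64 ± 0.20, calls lost in 2 of 5 and 4 of 6 leave-outs. Smad6, an inhibitory SMAD of the BMP branch, passed on HFD, at 3.68, 2.53 and 3.16 in PA and below the array median on all HFD CD11c- ATM arrays, so the difference was at least 0.05 (adjusted p = 0.00203). It was tested only because 2 HFD PA arrays exceeded their median, so its entry rests on the group where it was high. The remaining SMADs Smad1, Smad2, Smad4 and Smad5, with Smurf1 and the corepressors Ski and Skil, passed in none of the 13 comparisons between groups.

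The antagonists were again preadipocyte genes. Follistatin (Fst), which binds and neutralises activins, read 7.33, 8.01 and 8.15 in ND PA, 8.29, 7.38 and 8.10 in HFD PA, and 3.09 and 3.90 in ND CD11c- ATM. It was higher in PA by 4.34 ± 0.48 on ND (adjusted p = 9.14e-07) and by 3.44 ± 0.43 on HFD (adjusted p = 1.02e-05). Fstl1, a secreted follistatin-like protein, was higher by 4.14 ± 0.48 and 2.85 ± 0.43, and Fstl3, a second activin binder, by 1.91 ± 0.28 and 1.5 ± 0.25. The BMP antagonist Grem1 exceeded the array median on 2 of 24 arrays and passed nowhere. Among other inhibitors and binding proteins, 7 of 10 were higher in PA on either diet, led on ND by the BMP modulator Bmper (5.41 ± 0.54) and the matrix proteoglycan Aspn (4.39 ± 0.86).

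The high fat diet changed few of these genes in preadipocytes, and those it changed included 2 contractile genes. Acta2, Tagln, Ltbp2 and Tgfbi rose, 4 of 45 tested members, against 2.59% of all tested genes that changed and 1.69% that rose. No member fell. In a fit of the PA arrays alone, Ltbp2 was the only one of the 4 to pass. The median difference was 0.09 over the members and -0.02 over all genes.

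Acta2, smooth muscle actin, read 5.23, 4.81 and 4.37 in ND PA and 6.48, 8.32 and 6.83 in HFD PA, so that the lowest HFD array lay above the highest ND array. The difference was 2.41 ± 0.47 (adjusted p = 0.00695), and without ND PA replicate 3 it missed the threshold (adjusted p = 0.0518). Tagln, an actin-binding protein of smooth muscle, read 4.90, 4.54 and 4.65 on ND and 6.25, 7.99 and 6.64 on HFD. It rose by 2.26 ± 0.38 (adjusted p = 0.00169) and passed whichever array was left out. Both genes were highest on HFD PA replicate 2. In the macrophages and ATDC, Acta2 stayed between 4.10 and 6.03 apart from 7.38 in WL CD11c- ATM replicate 1, and Tagln stayed between 4.48 and 6.09.

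Ltbp2, an LTBP family member that does not bind latent TGF-beta, read 2.70, 2.94 and 2.47 in ND PA, all below the array median, and 4.77, 3.93 and 4.93 in HFD PA. It rose by at least 1.49 (adjusted p = 0.000305) and passed without any single array. Of the 4 arrays above their median that let Ltbp2 into the test, 3 were these HFD PA arrays. Outside HFD PA it did not exceed 3.17. Tgfbi, a secreted matrix protein named for its induction by TGF-beta, rose from 7.76, 6.80 and 6.34 to 8.26, 7.91 and 8.66, by 1.31 ± 0.33 (adjusted p = 0.0348). That call was lost when any 1 of 4 arrays was left out (ND PA replicates 2 and 3, HFD PA replicates 1 and 3). Tgfbi was far higher in macrophages, at 10.84 and 11.09 in ND CD11c- ATM, a log2 difference of PA from them of -4.00 ± 0.36 on ND (adjusted p = 1.44e-07) and -2.07 ± 0.33 on HFD.

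The contractile genes Myl9 and Cnn1 did not pass. Myl9, a regulatory myosin light chain, read 7.82, 8.29 and 7.99 in ND PA and 7.90, 7.83 and 7.85 in HFD PA, and was higher in PA than in CD11c- ATM by 2.98 ± 0.66 and 2.93 ± 0.59 on the respective diets. Cnn1, calponin of mature smooth muscle, stayed between 2.22 and 3.57 on every array. Among 23 other contractile and myofibroblast genes 4 rose and 2 fell in HFD PA. The actin crosslinker Actn1 rose by 2.53 ± 0.56 and the fibroblast cadherin Cdh11 by 2.38 ± 0.53, and the smooth muscle gene Lmod1 fell by 1.99 on the log2 scale (adjusted p = 0.00166). Among 18 target genes of TGF-beta and BMP 4 rose and none fell: Timp1, an inhibitor of matrix proteases, by 3.91 ± 0.58, the matrix proteins Tnc by 3.17 ± 0.46 and Postn by 2.17 ± 0.48, and the matricellular gene Ccn2 by 2.47 ± 0.53 (adjusted p at most 0.0176).

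The ligands and signal carriers did not pass in this comparison. Differences were 0.80 ± 0.52 for Tgfb1, 0.17 ± 0.40 for Tgfb2 and 0.87 ± 0.44 for Tgfb3 (adjusted p = 0.662, 0.962 and 0.477). For Tgfbr1, Tgfbr2, Smad3 and Smad7 they lay between -0.05 and 0.22. Ltbp3 read 1.12 higher on HFD (adjusted p = 0.0791) and Smad6, with no ND PA array above its median, at least 0.08 higher (adjusted p = 0.0684). Among 13 other ligands Gdf11 rose by 1.82 ± 0.44 and Bmp5 fell by 1.24.

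**Figure D3:**
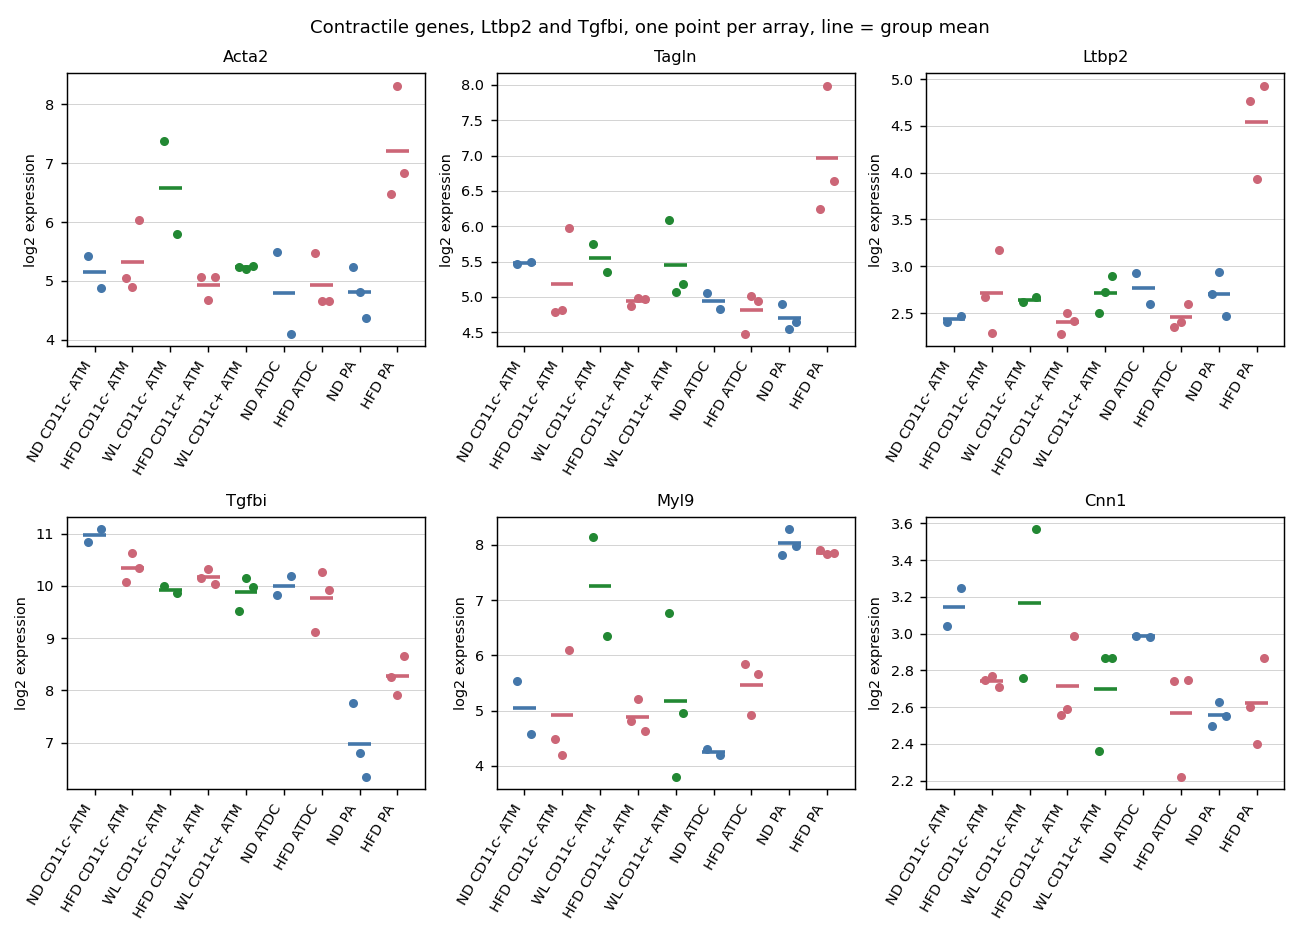
Log2 expression of Acta2, Tagln, Ltbp2, Tgfbi, Myl9 and Cnn1 on each of the 24 arrays by group; points are arrays, lines are group means, and the vertical axes differ between panels. All 3 HFD PA arrays lie above all 3 ND PA arrays for Acta2, Tagln, Ltbp2 and Tgfbi, and not for Myl9.

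Whether the diet acted differently on PA than on other cells was tested as an interaction. Between PA and ATDC 1 member passed, Ltbp2, with a fitted term of 2.15 ± 0.38 towards PA (adjusted p = 0.0132), where 0.265% of all genes passed and 0.116% in this direction. No array of ND PA, ND ATDC or HFD ATDC exceeded its median for Ltbp2, so the size of that term is not a measured difference. Ltbp2 was tested only because HFD PA arrays, where it was high, exceeded their median. The call was lost without ND ATDC replicate 1 (adjusted p = 0.0795) and in a fit of the arrays of the comparison alone. Between PA and CD11c- ATM no member passed in limma, where 0.277% of all genes did. The looser cut of an unadjusted p under 0.05 was met by 7 members, and the share of all genes at that cut is not given here. Tagln came closest, at 2.55 ± 0.57 (adjusted p = 0.0661), and Acta2 stood at 2.24 ± 0.71 (adjusted p = 0.253).

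Markers of other cells also moved between the PA groups. The median of the macrophage markers was 5.83, 5.11 and 4.37 on ND and 7.12, 6.24 and 8.18 on HFD, and 8 of the 10 rose. HFD PA replicate 2, with the highest Acta2 and Tagln, had the lowest macrophage median of the HFD PA arrays. Ltbp2 was lowest of the HFD PA arrays on that replicate (3.93). Tgfbi had the same order over all PA arrays as the macrophage median, at 7.76, 6.80 and 6.34 on ND and 8.26, 7.91 and 8.66 on HFD. The pericyte and smooth muscle markers had a median of 4.54, 4.85 and 4.47 on ND and 5.22, 5.24 and 4.95 on HFD; of 10, Notch3 rose and Lmod1 fell. Notch3, a receptor of mural cells, read 4.30, 3.42 and 4.12 on ND and 5.28, 6.20 and 5.35 on HFD, highest on replicate 2. Rgs5, a pericyte gene, did not pass (adjusted p = 0.16) but read 6.83, 5.99 and 5.13 on ND and 7.31, 8.37 and 7.66 on HFD, without overlap and highest on replicate 2. Abcc9, Mcam and Kcnj8 also read higher on HFD without overlap, and Des read lower, none of them past the threshold (adjusted p = 0.0879, 0.756, 0.154 and 0.431). Of the HFD PA arrays, Abcc9 was highest on replicate 1 (5.56), Mcam on replicate 2 (5.34) and Kcnj8 on replicate 3 (4.86). Des was lowest on replicate 2 (6.80). The share of all genes without overlap is not given here. Myh11, the smooth muscle myosin, read 6.82, 6.77 and 6.95 against 6.94, 6.74 and 6.64. The endothelial markers had a median of 4.72, 3.29 and 3.20 on ND and 4.72, 4.96 and 5.14 on HFD. Of 9, Pecam1 rose, and 7 met the looser cut of an unadjusted p under 0.05, for which no share of all genes is given. That count is not split by direction. The fitted difference was positive for 8 of the 9. Tek went the other way and read lower on every HFD PA array than on any ND PA array, where it read 8.39, 8.35 and 8.11. The part of these markers in the rises of Acta2, Tagln, Ltbp2 and Tgfbi, and of the other contractile, target and ligand genes, was not tested.

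The sequences upstream of 3 of the 4 genes that rose, and of Myl9 as a contractile gene that did not pass, are shown because smooth muscle genes are known for CArG boxes, the sites of serum response factor, and TGF-beta targets for SMAD-binding motifs. They are the 250 bases before 1 annotated transcript start of each gene, from RefSeq on GRCm38.p6, written 5′ to 3′ on the gene's strand, for Acta2 chr19:34255374-34255623 (minus strand), Ltbp2 chr12:84876492-84876741 (minus), Tgfbi chr13:56609336-56609585 (plus) and Myl9 chr2:156775214-156775463 (plus). The gene records of Acta2, Ltbp2 and Myl9 begin further upstream, so 212, 67 and 56 bases of their windows lie inside the record, and none of the Tgfbi window does. Capitals mark CArG boxes with at most 1 mismatch in their central 6 bases and the SMAD-binding motif CAGAC or its complement GTCTG.
Acta2: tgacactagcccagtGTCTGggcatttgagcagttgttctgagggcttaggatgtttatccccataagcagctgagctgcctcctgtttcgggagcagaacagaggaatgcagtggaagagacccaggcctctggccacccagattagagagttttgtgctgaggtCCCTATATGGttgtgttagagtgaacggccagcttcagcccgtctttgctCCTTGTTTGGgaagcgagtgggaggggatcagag
Ltbp2: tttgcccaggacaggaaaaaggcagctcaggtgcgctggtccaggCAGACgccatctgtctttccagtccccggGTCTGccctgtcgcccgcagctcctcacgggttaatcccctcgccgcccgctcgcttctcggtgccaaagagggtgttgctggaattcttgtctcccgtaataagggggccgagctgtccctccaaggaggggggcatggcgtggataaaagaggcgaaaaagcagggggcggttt
Tgfbi: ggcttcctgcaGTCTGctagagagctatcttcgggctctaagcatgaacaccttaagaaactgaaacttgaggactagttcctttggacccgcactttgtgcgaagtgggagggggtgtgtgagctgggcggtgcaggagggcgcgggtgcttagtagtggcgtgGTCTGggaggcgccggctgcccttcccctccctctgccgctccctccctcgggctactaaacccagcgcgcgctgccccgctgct
Myl9: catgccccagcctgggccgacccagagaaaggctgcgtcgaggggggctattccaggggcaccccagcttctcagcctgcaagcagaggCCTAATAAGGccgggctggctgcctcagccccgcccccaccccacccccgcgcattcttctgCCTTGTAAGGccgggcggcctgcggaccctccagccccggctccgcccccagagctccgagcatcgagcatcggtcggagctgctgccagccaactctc

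Acta2 and Myl9 each held 2 CArG boxes by this relaxed search, which was chosen after the sequences had been seen, and Myl9 held 1 without a mismatch. Of 32851 mouse promoter windows of this length, 8.59% held a relaxed and 1.47% an exact box. Ltbp2 and Tgfbi held 2 SMAD-binding motifs each, Acta2 held 1 and Myl9 none, and 42.2% of all windows held at least 1. The matches are letters in a window, and no binding was measured.

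In CD11c- macrophages and in dendritic cells, no member passed between HFD and ND in limma. Of all tested genes, 0.613% passed the adjusted threshold in CD11c- ATM and 0.258% in ATDC. An unadjusted p under 0.05 was met by 12 members in CD11c- ATM and by 4 in ATDC. The share of all genes at that looser cut is not given here, so these counts have no background to be read against. Tgfb1 differed by 0.22 ± 0.58 in CD11c- ATM and by -0.01 ± 0.58 in ATDC, and Tgfbr2 by -0.68 ± 0.35 and -0.48 ± 0.35. HFD CD11c- ATM replicate 3 was the brightest of its group for many PA genes (Tgfbr3 6.95, against 5.54 and 5.04 on the other arrays) and had the highest preadipocyte and fibroblast marker median, 8.92 against 7.12 and 6.98. Among the target genes 4 of 18 rose in HFD CD11c- ATM, the matrix genes Postn (4.75 ± 0.54), Timp1 (4.02 ± 0.65), Col3a1 (3.53 ± 0.54) and Col1a2 (3.14 ± 0.42), and of 11 preadipocyte and fibroblast markers 3 rose, among them Col3a1 and Col1a2. The part of those markers was not tested. In HFD ATDC, 1 of 18 target genes, Postn, rose by 2.61 ± 0.54. Inhba, the activin A subunit, read 2.71 and 5.26 in the ND ATDC arrays and at most 3.47 elsewhere, and it passed in the ATDC comparison when ND ATDC replicate 1 was left out.

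After weight loss, several members that were high in preadipocytes were raised in the macrophages. Against ND, 8 of 45 members rose in WL CD11c- ATM and none fell, where 6.18% of all tested genes changed and 3.23% rose. The median difference was 0.36 over the members and -0.08 over all genes. Only 2 arrays stood in each group, and 2 to 6 members passed when 1 array was left out.

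Tgfbr3 and Fst passed in each of these leave-outs. In a fit of the arrays of this comparison alone, 4 members passed, Tgfbr3, Fstl1, Bmp1 and Tgfb3, and Fst did not. Tgfbr3 read 5.02 and 4.19 in ND CD11c- ATM and 7.17 and 7.70 in WL CD11c- ATM, a rise of 2.84 ± 0.48 (adjusted p = 0.00179). Fst read 3.09 and 3.90 on ND and 7.03 and 5.66 after weight loss, a rise of 2.85 ± 0.52 (adjusted p = 0.00289). Neither gene's groups overlapped. Fstl1 rose from 6.53 and 5.71 to 8.96 and 8.65, by 2.68 ± 0.52 (adjusted p = 0.00435), and missed the threshold without ND replicate 2 (adjusted p = 0.0688). Gdf10 rose from 4.55 and 3.96 to 6.34 and 6.02, by 1.93 ± 0.40 (adjusted p = 0.00679). Bmp1 and Tgfb3 started below the array median and rose by at least 2.68 and 2.03 (adjusted p = 0.0149 and 0.00836). Ltbp4 rose by 1.92 ± 0.50 (adjusted p = 0.0263), and Smad7 rose from 3.98 and 4.30 to 5.11 and 6.39, by 1.61 ± 0.44 (adjusted p = 0.0348). Of these, Gdf10 was lost without ND replicate 2 or WL replicate 1, Tgfb3 without ND replicate 2 or WL replicate 2, Bmp1 without either ND array or WL replicate 1, Smad7 without either ND array or WL replicate 2, and Ltbp4 without any 1 of the 4.

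Tgfb1, at 8.29 and 8.67 on ND and 8.94 and 8.19 after weight loss, differed by 0.09 ± 0.64, and Tgfbr2 by -0.93 ± 0.38 (adjusted p = 0.174). Acta2 differed by 1.43 ± 0.58 (adjusted p = 0.169) and Tagln by 0.07 ± 0.46. Among the 18 target genes 10 rose, led by Postn (5.31 ± 0.59), the matricellular gene Ccn1 (4.27 ± 0.78), Timp1 (4.02 ± 0.71) and Col3a1 (3.88 ± 0.59). Col3a1, Col1a2 and Col1a1, all among the 10, are also on the list of preadipocyte and fibroblast markers. Among 10 other inhibitors 4 rose, led by the proteoglycan Bgn (3.74 ± 0.58) and Bmper (3.58 ± 0.59). Dcn, also among these 4, is on that marker list too.

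Against HFD, 3 members rose in WL CD11c+ ATM, where 1.33% of all genes changed and 0.632% rose. Gdf10 read 4.42, 4.28 and 4.29 on HFD and 5.96, 5.91 and 5.80 after weight loss, a rise of 1.56 ± 0.33 (adjusted p = 0.0268). Fst rose from 3.98, 3.34 and 3.35 to 5.53, 5.32 and 5.55, by 1.91 ± 0.43 (adjusted p = 0.0345), and Bmp1 from 4.61, 1.95 and 2.39 to 4.81, 5.68 and 5.62, by 2.39 ± 0.58 (adjusted p = 0.0485). The groups did not overlap for any of these genes, but each missed the threshold in 5 of 6 leave-outs, at adjusted p-values of up to 0.103, 0.139 and 0.188. Tgfb2 read 1.53 higher (adjusted p = 0.0601), Ltbp4 1.52 higher (0.0666) and Tgfbr3 1.47 higher (0.0668). Among the target genes 2 of 18 rose, Ccn1 by 3.97 ± 0.64 and Id3, a classical BMP target, by 2.62 ± 0.42.

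In CD11c- ATM, Fst was the only member that rose from HFD to WL, where 2.96% of all genes changed and 1.17% rose. It read 4.55, 3.52 and 5.40 on HFD and rose by 1.85 ± 0.48 (adjusted p = 0.0393), a call lost without HFD replicate 1 or 2 or WL replicate 1. Without HFD replicate 3, the array with the highest fibroblast marker median of its group, 6 members passed (Tgfbr3, Ltbp4, Gdf10, Fst, Fstl1 and Myl9). The comparisons of WL CD11c- ATM with ND and with HFD share the WL arrays. Among the target genes Ccn1 rose by 3.61 ± 0.71, the transcription factor Bhlhe40 by 2.68 ± 0.49 and Id3 by 2.61 ± 0.47.

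The preadipocyte and fibroblast markers moved with these members. Their median was 6.02 and 5.03 in ND CD11c- ATM and 8.65 and 7.84 in WL CD11c- ATM, where 9 of 11 rose against ND and 0 of 11 passed against HFD. In CD11c+ ATM it was 6.77, 5.99 and 5.68 on HFD and 7.61, 8.21 and 7.14 after weight loss, with 2 of 11 raised, Lum and Dcn. Pdgfra, the receptor that marks fat precursors, read 3.97 and 3.59 in ND CD11c- ATM, 8.57 and 7.24 in WL CD11c- ATM, and 9.55 to 10.23 in PA. Of 9 endothelial markers 3 rose in WL CD11c- ATM against ND, with a list median of 5.55 and 5.83 after weight loss and 4.23 and 3.73 on ND. The median of 8 T, B and NK cell markers was 5.33 and 5.36 after weight loss and 4.03 and 4.22 on ND, with 1 marker raised. The part of these markers in the rises of Fst, Tgfbr3, Gdf10, Bmp1, Fstl1, Tgfb3, Ltbp4 and Smad7, and of the target and inhibitor genes, was not tested.

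**Figure D4:**
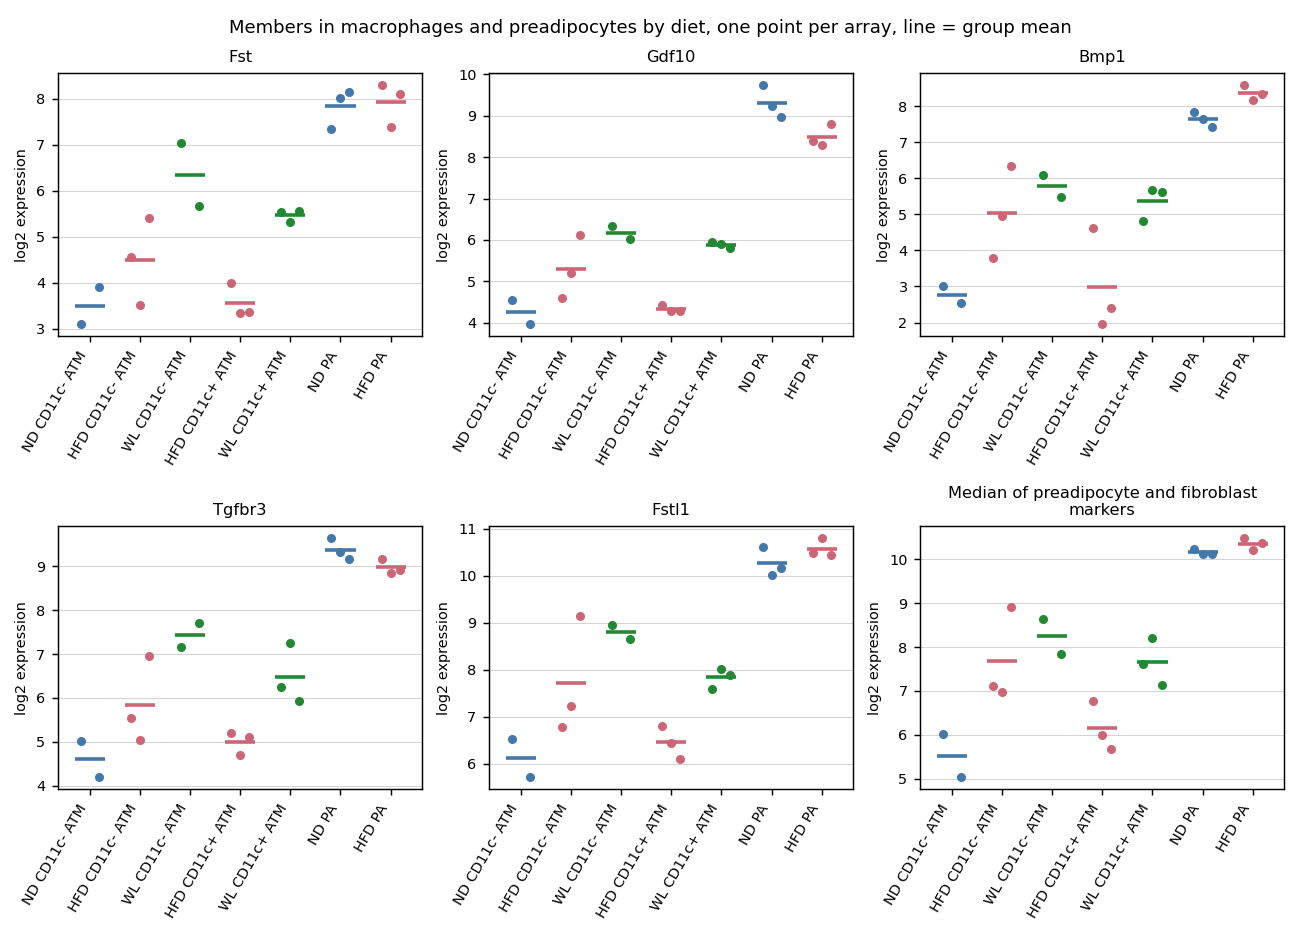
Log2 expression of Fst, Gdf10, Bmp1, Tgfbr3 and Fstl1, and the median log2 level of 11 preadipocyte and fibroblast markers, on each macrophage and PA array by group; points are arrays, lines are group means, blue is ND, red HFD, green WL, and the vertical axes differ between panels. The WL macrophage arrays lie between the ND macrophage and the PA arrays for each gene and for the marker median.

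CD11c+ and CD11c- macrophages did not differ in any member by limma, neither on HFD, where 0.00645% of all genes passed, nor after weight loss, where 1.34% passed. The looser cut of an unadjusted p under 0.05 was met by 9 members on HFD and by 5 after weight loss. The share of all genes at that cut is not given here. Tgfbr1 was 0.80 ± 0.25 higher in HFD CD11c+ ATM with no overlap between the arrays, but its adjusted p was 0.454. Tgfb1 differed by 0.42 ± 0.52 on HFD and by 0.40 ± 0.58 after weight loss.

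Few members differed between dendritic cells and macrophages, at shares near those of all genes, and all that passed were lower in dendritic cells. On ND, 3 of 45 members were lower in ATDC than in CD11c- ATM and none was higher, where 8.27% of all genes differed and 4.6% were lower. Tgfbr2 read 6.59 and 6.53 in ND ATDC against 8.70 and 8.69, a log2 difference of -2.13 ± 0.38 (adjusted p = 0.00108). Bmp2 read 2.57 and 2.58, both below the array median, against 5.95 and 6.18, a drop of at least 2.94 (adjusted p = 0.00101). Both passed in every leave-out. Acvr1b, the activin type I receptor, read 2.59 and 3.10 against 4.09 and 5.29, at least 1.56 lower (adjusted p = 0.0437), and was lost without ND CD11c- ATM replicate 2 or either ATDC array. On HFD, Tgfbr2 and Tgfbr1 were lower in ATDC than in CD11c+ ATM, 2 of 45 members, where 4.16% of all genes differed and 2.44% were lower. Tgfbr2 read 5.93, 6.58 and 5.72 against 7.98, 7.67 and 7.36 (-1.59 ± 0.31, adjusted p = 0.00463). Tgfbr1 read 5.95, 5.61 and 5.59 against 6.97, 6.62 and 7.07 (-1.17 ± 0.25, adjusted p = 0.0085), a call lost without HFD CD11c+ ATM replicate 3 (adjusted p = 0.0544). Bmp2, below the array median on all HFD ATDC arrays, read at least 1.27 lower (adjusted p = 0.0847).

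Of 7 other receptor genes 3 were lower in ATDC on ND, where 4.6% of all genes were lower. They were the coreceptors Eng (-2.88 ± 0.60), Nrp1 (-2.58 ± 0.29) and Rgmb (-1.75 ± 0.42). On HFD 2 of 7 were lower, Eng (-1.80 ± 0.49) and Nrp1 (-1.25 ± 0.24), where 2.44% of all genes were lower. The list was chosen with earlier results of these data known, so these counts are a description. Among the target genes Id2, a transcriptional inhibitor that dendritic cells also use for their own development, was higher in ATDC by 3.93 ± 0.39 on ND (adjusted p = 1.68e-06) and by 1.95 ± 0.32 on HFD (adjusted p = 0.00088). The ATDC arrays also carried macrophage markers and those of lymphocytes, with lymphocyte marker medians of 4.73 to 6.67 against 3.65 to 4.69 in the ND and HFD macrophages and 3.98 to 5.36 in the WL macrophages. The part of those markers was not tested.

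Over the 13 comparisons between groups, 32 of the 45 tested members passed at least once and 13 never did. Those 13 were Smad1, Smad2, Smad4, Smad5, Smurf1, Ski, Skil, Acvr1, Acvr2b, Bmp7, Inhba, Grem1 and Cnn1. With 2 or 3 arrays in a group, a miss does not show that a gene was equal.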

How the data were processed

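RNA of sorted cells was amplified and biotin-labelled and hybridised to single-colour arrays, per the labels' protocols. The deposited values are log2 expression on which the authors ran RMA, with oligo and limma also named, per the submitters' processing notes. No counts exist, so the number of arrays limits the precision. The table holds 41345 rows, of which 23521 carry exactly 1 symbol; of several rows of a gene the one with the highest mean over 24 arrays was kept (22180 genes). Genes above the array median on at least 2 arrays were tested (15496) with limma 3.58.1 in R 4.3.3: 1 mean per group, all arrays, Benjamini-Hochberg over all tested genes, threshold 0.05. The fit was tested on simulated data. There were 13 comparisons and 2 diet interactions, 9 alternative settings, and each array was left out in turn. Arrays of a group are separate samples in the labels; where separate pools of mice are not stated, p-values measure the spread between arrays.

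The members and gene lists were chosen with earlier results of these data known. Values on every array are given for at most 8 members past the threshold per comparison, by size, and for Tgfb1, Tgfb2, Tgfb3, Tgfbr1, Tgfbr2, Smad3, Smad7, Acta2 and Tagln; of the other pathway genes at most 4 per list and comparison are named, by size. Promoters came from RefSeq, where 35 of 47 members had an entry.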

Additional observations from a re-analysis of the deposited data

Results flagged for a closer look

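The interaction term for the diet difference of Ltbp2 in PA against ATDC was 2.15 ± 0.38 on the log2 scale in limma (adjusted p = 0.0132). Ltbp2 read 4.77, 3.93 and 4.93 in HFD PA, 2.70, 2.94 and 2.47 in ND PA, 2.35, 2.41 and 2.60 in HFD ATDC, and 2.93 and 2.60 in ND ATDC, so no array of the other 3 groups exceeded 2.94 or its array median, and the size of the term is not a measured difference. Ltbp2 was tested only because HFD PA arrays, where it was high, exceeded their median. The call was lost without ND ATDC replicate 1 (adjusted p = 0.0795) and in a fit of the arrays of the comparison alone, and the stricter filter removed the gene. Groups of 2 or 3 arrays were too small to test single arrays as outliers.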

How the results depend on the processing

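Counts of members past the threshold moved with single arrays and with other settings. Leaving out each array in turn gave 0 members each time for HFD against ND in CD11c- ATM, 0 to 1 in ATDC and 2 to 6 in PA, where 2 members passed each time. It gave 0 to 5 for WL against HFD in CD11c+ ATM, 0 to 6 in CD11c- ATM and 2 to 6 for WL against ND. For CD11c+ against CD11c- ATM it gave 0 on HFD and 0 to 1 after weight loss (Myl9, without WL CD11c+ ATM replicate 1). For ATDC it gave 2 to 4 on ND and 1 to 2 on HFD, for PA against macrophages 18 to 24, 24 to 29 and 24 to 26, and for the interactions 0 to 2 (CD11c- ATM) and 1 to 2 (ATDC). With the arrays of a comparison alone, 1 member passed for HFD against ND in PA (Ltbp2), 0 for WL against HFD in either macrophage, 4 for WL against ND and 0 in the PA and ATDC interaction. Array weights gave 0 for WL against HFD in CD11c- ATM, 5 for WL against ND and 3 in the PA and CD11c- ATM interaction. A further quantile normalization gave 2 and 1 for the first and last of these. The stricter filter, which drops Ltbp2, gave 0 in the PA and ATDC interaction. Deviations of same-numbered arrays of a diet from their group means correlated between -0.109 and 0.252 over 26 pairs. With means of 2 or 3 arrays, such values cannot show whether same numbers share a pool of mice, so pairing remains unknown. With the replicate number as a block, 2 members (Fst and Myl9) passed for WL against HFD in CD11c- ATM instead of 1. No other count moved by over 1.5 times with that block. No direction reversed among the called members. The cause of these shifts was not tested.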
